A study of Homo sapiens with 66 samples.

Results

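Cells that had received gRNAs against ADAR and HNRNPC together were compared between day 5 and day 4 after nucleofection. The members were the 3 day 5 and the 3 day 4 whole-cell libraries whose labels carry both gRNAs, 6 of the 66 libraries of the series. The cells were THP-1, a human monocytic leukemia line, as a Cas9-transgenic STING-deficient clone, so that every group, controls included, descends from 1 clone and lacks STING. Cells with the hnRNPC gRNA or the ADAR gRNA alone received a nontarget gRNA in place of the other, CTRL cells received nontarget gRNA, and each of these groups also had 3 libraries per day on days 3, 4, and 5. A further group of CTRL cells, with 3 libraries, was treated with IFN-α from day 3 and harvested on day 4. Cells with a GFP gRNA and a nontarget gRNA had 3 libraries on each of days 3, 4, and 5. With 3 doubly targeted libraries of day 3, these groups made up the 48 libraries of study 1. Gene counts of the 6 libraries ranged from 108469385 to 120989621 on day 4 and from 106639720 to 122451675 on day 5.

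ADAR is the enzyme that deaminates adenosine to inosine in double-stranded RNA, and hnRNPC is a nuclear RNA-binding protein that keeps Alu sequences in introns from being used as exons. Inverted Alu repeats that remain unedited can form long duplexes, which the cytosolic sensor MDA5 recognizes. MDA5 signals through MAVS to the IFN-β gene, and secreted interferon then acts through its receptor and JAK-STAT signaling on IFN-stimulated genes.

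The gRNAs are shown because they set where the genes were cut, with the adjacent NGG motif of the reference in capitals. The ADAR gRNA lay at chr1:154574128-154574146 (GRCh37, plus strand) in the coding sequence of ADAR, a region that is UTR in other transcripts. The hnRNPC gRNA lay at chr14:21702284-21702303 (plus strand) in the coding sequence of HNRNPC, and the same bases occurred at chr2:190788111-190788130 in the pseudogene HNRNPCP2.
ADAR.2: tatatctcgggccttggtaAGG
hnRNPC.2: gagattcccaatgaatacacGGG

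HNRNPC mRNA was at 294.4, 317.1, and 332.7 CPM (counts scaled to the library size) in the day 4 libraries and at 391.3, 376.4, and 417.4 CPM on day 5. All day 5 libraries were above all day 4 libraries, with a log2 fold change of 0.33 ± 0.0578 (SE, edgeR quasi-likelihood test, adjusted p = 1.05e-05). ADAR mRNA was at 419.7, 461.2, and 485.0 CPM on day 4 and rose to 1165, 1290, and 1509 CPM on day 5, a log2 fold change of 1.54 ± 0.0820 (adjusted p = 1.83e-18). CTRL cells on day 5 had 394 ± 26.4 CPM of ADAR (SD, n = 3) and IFN-α–treated cells 1240 ± 165 CPM, so the amount of ADAR mRNA is no measure of how many copies of the gene were cut. STING1 was at 142.6 to 172.3 CPM in the 6 libraries and did not pass the test (log2 fold change -0.07, adjusted p = 0.559). The mRNA of a cut gene can persist, and STING1 mRNA was present in this STING-deficient clone.

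Between day 4 and day 5, 449 of 13187 tested genes (3.4%) rose at least 2-fold with an adjusted p of at most 0.05, and 36 (0.273%) fell. These thresholds define a called gene throughout. By adjusted p alone, 3203 genes (24.3%) were higher and 3627 (27.5%) lower, and all day 5 libraries lay above all day 4 libraries for 3686 genes (28%) and below them for 4024 (30.5%). Over the same day, 63 genes (0.478%) were called higher and 6 (0.0455%) lower with the hnRNPC gRNA alone. With the ADAR gRNA alone 16 (0.121%) were higher and 0 lower, and in CTRL cells 6 (0.0455%) were higher and 16 (0.121%) lower. For the 0 genes called lower with the ADAR gRNA alone, 18 were lower by edgeR's adjusted p without the 2-fold requirement, and 1425 genes had an unadjusted p under 0.05 in either direction. The median log2 fold change over all genes was -0.0333. In bulk RNA, fewer cells of a type and less RNA per cell cannot be told apart.

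The time change itself differed from that of hnRNPC-targeted cells by at least 2-fold for 500 genes, 415 higher (3.15%) and 85 lower (0.645%). Against ADAR-targeted cells the difference held for 389 genes, 364 higher (2.76%) and 25 lower (0.19%), and against CTRL cells for 501, 463 higher (3.51%) and 38 lower (0.288%). Between day 3 and day 4, the doubly targeted cells had 157 genes called higher (1.19%) and 10 lower (0.0758%), and this earlier comparison shares the day 4 libraries with the later one.

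The interferon effectors, antiviral proteins induced through the interferon receptor, changed most uniformly. All 32 listed and tested members were called higher, against 3.4% of all genes, and their median log2 fold change was 4.17 against -0.0333 over all genes. For all 32 the increase also exceeded that in hnRNPC-targeted and in ADAR-targeted cells by at least 2-fold, and 31 of the 32 were among the genes induced by IFN-α.

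IFIT1, which binds viral RNA that lacks cap methylation, was at 16.92, 20.27, and 41.53 CPM on day 4 and at 726.4, 778.8, and 1112 CPM on day 5 (log2 fold change 5.06 ± 0.288, adjusted p = 1.56e-17). IFI27, a small mitochondrial protein, went from 1.598, 1.633, and 3.53 CPM to 75.71, 97.45, and 187.1 CPM (5.73 ± 0.279, adjusted p = 1.1e-19). Replicate 3 was the highest library on both days for IFIT1 and IFI27, and the days did not overlap. IFI44L went from 6.037, 6.313, and 12.28 CPM to 277.0, 352.9, and 529.0 CPM (5.55 ± 0.279, adjusted p = 2.9e-19). RSAD2, or viperin, which makes a chain-terminating nucleotide, went from 11.84, 13.23, and 22.8 CPM to 341.1, 416.3, and 694.9 CPM (4.92 ± 0.209, adjusted p = 2.34e-21). The smallest increases in the list were those of IFITM2 (log2 fold change 1.23) and BST2 (1.16), which hold back virus entry and release.

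**Figure D1:**
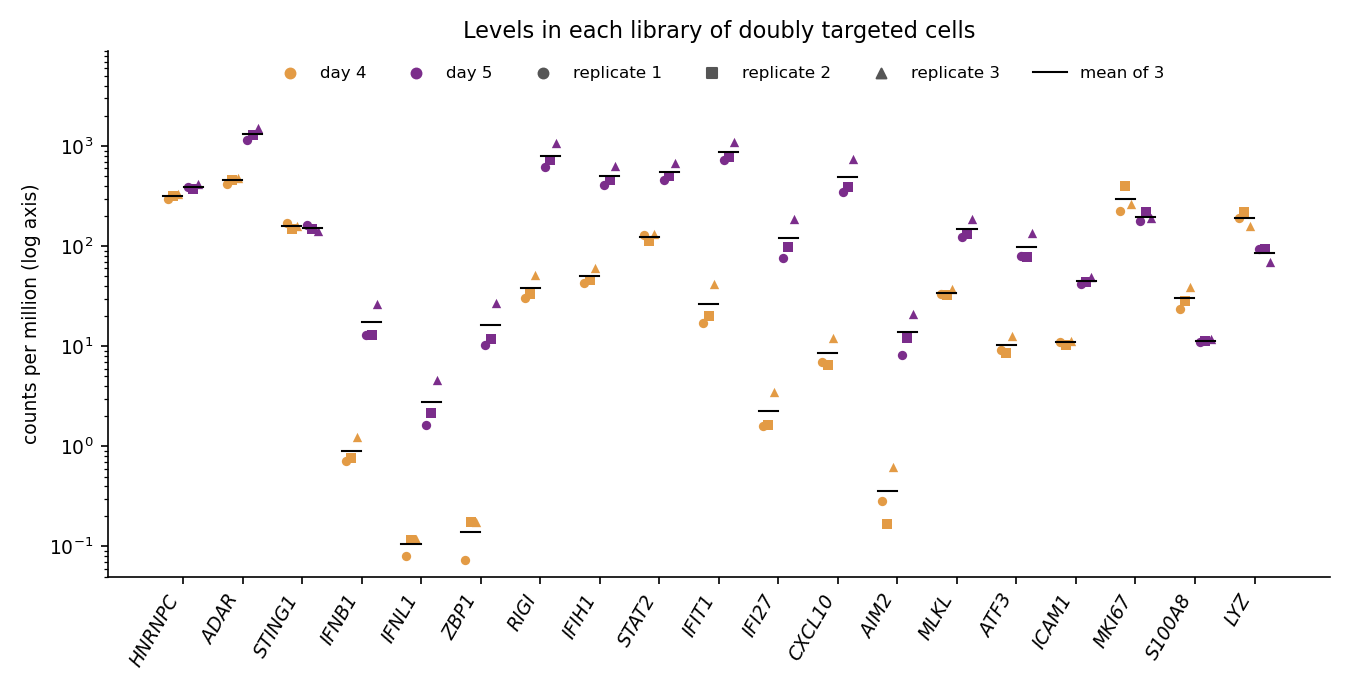
Levels of selected genes in the doubly targeted libraries of days 4 and 5, in CPM on a log axis, with 1 point per library (shape for the replicate) and a line at the mean of 3. The mean of IFIT1 is 26.2 CPM on day 4 and 872 on day 5, and for LYZ all day 5 libraries lie below those of day 4.

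The interferon-stimulated response element, a motif in promoters of IFN-stimulated genes, was looked for on both strands as GAAA, 2 bases of any kind, and GAAA again, in RefSeq promoters (GRCh38.p14, 250 bases before to 50 after the start). It occurred in 3.57% of 35116 promoters. A listed promoter was found for 77.5% of the 409 protein-coding genes called higher, which is under the 80% needed for a comparison of shares, so none was made. The windows below show a match in 5 of the effectors that the results turn on, with the matching letters, read from the plus strand, in capitals. They lay at chr14:94110631-94110660 (IFI27), chr1:78620365-78620394 (IFI44L), chr10:89392510-89392539 (IFIT1), chr2:6877622-6877651 (RSAD2), and chr21:41420559-41420588 (MX1). Other effectors called higher had no match in their listed promoters, namely OAS1, CMPK2, HERC6, XAF1, SAMD9L, and IFI35. A match is a description of the letters and was not tested for binding.
IFI27: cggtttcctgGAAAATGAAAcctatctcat
IFI44L: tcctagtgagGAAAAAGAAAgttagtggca
IFIT1: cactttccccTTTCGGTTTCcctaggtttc
RSAD2: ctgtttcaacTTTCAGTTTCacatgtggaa
MX1: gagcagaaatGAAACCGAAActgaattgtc

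Of 14 tested sensors of double-stranded RNA and adaptors, 7 were called higher (3.4% over all genes) and none lower (0.273%). By adjusted p alone 11 were higher and 1 lower, against 24.3% and 27.5% of all genes, and the list median was 1.0. RIGI, the sensor of RNA with 5′ triphosphates, was at 30.6, 33.61, and 51.63 CPM on day 4 and 622.6, 728.1, and 1065 CPM on day 5 (log2 fold change 4.38 ± 0.145, adjusted p = 2.77e-24). IFIH1, which encodes MDA5, rose from 43.3, 46.33, and 61.11 CPM to 407.7, 463.4, and 639.2 CPM (3.33 ± 0.109, adjusted p = 2.52e-24). DHX58, which encodes the related regulator LGP2, and IRF7, a transcription factor for interferon genes, rose by 3.58 and 3.08 on the log2 scale. EIF2AK2, which encodes the kinase PKR, rose by 2.20. The adaptor MAVS had a log2 fold change of -0.19 and passed the adjusted p alone (0.0198), whereas IRF3 did not pass (-0.16, adjusted p = 0.0711).

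The interferon genes themselves were below the level required for testing across all 48 study 1 libraries, and 0 of 13 listed ligands entered the fit. IFNB1, which encodes IFN-β, had 89, 91, and 157 counts on day 4 and 1478, 1623, and 3517 counts on day 5. In the fit without a filter its log2 fold change was 4.27 (adjusted p = 2.36e-49), and on day 5 no CTRL library had more than 8 counts, no hnRNPC-targeted library more than 10, and no ADAR-targeted library more than 38. IFNL1, a type III interferon, had 10, 14, and 15 counts on day 4 and 186, 273, and 608 on day 5 (4.72, adjusted p = 2.46e-13). No count was found in any of the 6 libraries for IFNA1, IFNA2, IFNA5, IFNA8, and IFNA13, members of the IFN-α family. ZBP1, a sensor of Z-form nucleic acids that can start necroptosis, was also below the limit, at 9, 21, and 22 counts on day 4 and 1164, 1480, and 3576 on day 5 (6.85, adjusted p = 7.99e-85).

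Of 18 tested genes of the interferon receptor and the JAK-STAT pathway, 6 were called higher (3.4% over all genes) and none lower (0.273%). Among the 6 were STAT2, IRF1, and IRF2. By adjusted p alone 12 were higher and 3 lower, against 24.3% and 27.5% of all genes. STAT2, a transcription factor of this pathway, was at 129.8, 112.8, and 131.6 CPM on day 4 and 456.5, 509.7, and 685.3 CPM on day 5 (log2 fold change 2.14 ± 0.102, adjusted p = 6.1e-20). IRF1 rose by 1.80 and IRF2 by 1.58 on the log2 scale. The receptor chains did not follow: IFNAR1 was at -0.10 (adjusted p = 0.336) and IFNAR2 at -0.20 (adjusted p = 0.0163). SOCS1, an inhibitor of this signaling that was below the limit for testing, had 101, 111, and 139 counts on day 4 and 394, 484, and 577 on day 5.

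Chemokines and cytokines, which recruit and instruct other leukocytes, were called higher for 9 of 10 tested genes. The filter on low counts, which some members pass through their day 5 libraries, left out another 13, of which 7 were at least 2-fold higher with an adjusted p of at most 0.05 in the fit without a filter and 6 were not, among them CXCL1 (0.56, adjusted p = 0.43). So these counts describe the list and are not set against the share of all genes. CXCL10, a ligand of CXCR3 on T cells, was at 7.037, 6.455, and 12 CPM on day 4 and 345.3, 387.5, and 743.6 CPM on day 5 (5.86 ± 0.293, adjusted p = 2.54e-19). IFN-α–treated CTRL cells had 0.765 ± 0.240 CPM of CXCL10 (SD, n = 3), less than any doubly targeted library of day 4. CXCL11, another CXCR3 ligand, rose by 5.04, CCL2, which attracts monocytes, by 4.28, and CD274, which encodes PD-L1, by 3.66 on the log2 scale. The time change of CXCL11 was distinguishable neither from that in hnRNPC-targeted cells (difference 3.31, adjusted p = 0.267) nor from that in CTRL cells (difference -0.23, adjusted p = 0.729). For CXCL10 the difference from CTRL cells was 3.85 (adjusted p = 0.135). CTRL libraries had 0, 6, and 1 counts of CXCL10 on day 4 and 0, 16, and 14 on day 5. Their own time change thus rests on few reads, and this test cannot show a similar rise in CTRL cells. IL18 was the tested member not called (0.19, adjusted p = 0.0516).

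Of 14 NF-κB feedback genes, 7 were called higher (3.4% over all genes) and 13 were higher by adjusted p alone (24.3% over all genes), and none was called higher with IFN-α. The time change of 2 of the 14 was higher by at least 2-fold than that in hnRNPC-targeted cells (3.15% over all genes). ICAM1, an adhesion molecule for leukocytes, went from 11.16, 10.34, and 11.34 CPM to 42.45, 44, and 49.58 CPM (2.05 ± 0.238, adjusted p = 3.79e-09). Its increase was not distinguishable from that in hnRNPC-targeted cells (difference 0.47, adjusted p = 0.292). BIRC3, an inhibitor of apoptosis downstream of NF-κB, rose by 1.80, RELB, a subunit of the noncanonical pathway, by 1.66, and TNFAIP3, the inhibitor A20, by 1.54, and the difference of these 3 from hnRNPC-targeted cells passed the adjusted p.

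**Figure D2:**
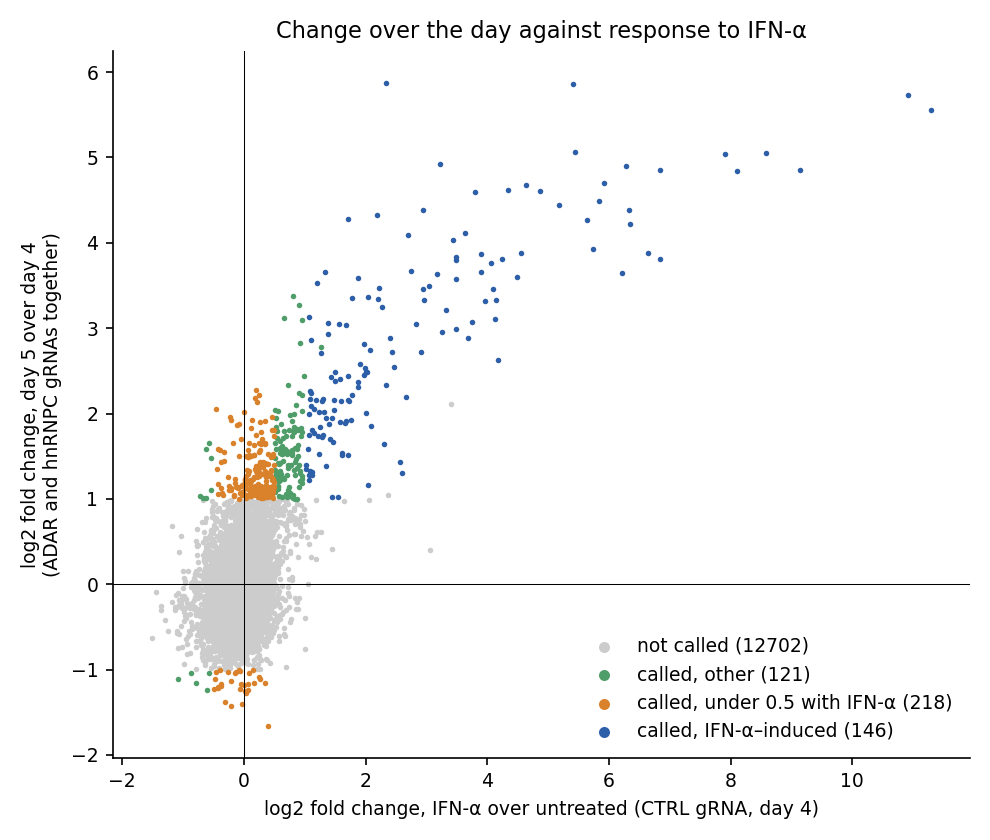
Log2 fold change from day 4 to day 5 in doubly targeted cells against the log2 fold change of IFN-α–treated over untreated CTRL cells, with 1 point per tested gene. Of 159 genes called higher with IFN-α, 146 are also called higher on day 5, and of the called genes at an absolute IFN-α change under 0.5, 187 are higher and 31 lower on day 5.

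IFN-α treatment of CTRL cells gave a reference for which genes interferon alone induces in this clone. It induced 159 of the 13187 genes (1.21%) and lowered 15 (0.114%). Of the 159 induced genes, 146 (91.8%) were called higher from day 4 to day 5, and 136 of these 146 had a higher mean on day 5 than in IFN-α–treated cells. The same held for 435 of all 449 genes called higher and for 6108 of the 13187 tested genes. So the 136 are not a trait of the IFN-α–induced genes. The 13 of the 159 that were not called had log2 fold changes from 0.299 to 2.12, and included CDKN1A, which encodes the cell cycle inhibitor p21 (0.55, adjusted p = 0.0166), and the proteasome activator gene PSME2 (0.62, adjusted p = 1.81e-09). RPL10 was the largest of them and varied between libraries (2.12 ± 1.08, adjusted p = 0.0986).

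Among 12324 genes that moved by less than 0.5 on the log2 scale with IFN-α, 187 (1.52%) were called higher and 31 (0.252%) lower. SAT1, which acetylates polyamines, was at 28.04, 24.77, and 28.06 CPM on day 4 and 95.87, 91.54, and 120.3 CPM on day 5 (1.93 ± 0.143, adjusted p = 4.43e-14). NUPR1, a stress-induced nuclear protein, rose by 1.96, TRANK1 by 1.90, LRATD2 by 1.80, and DUSP5, a phosphatase of ERK, by 1.73 on the log2 scale. Of these, NUPR1 could not be distinguished from hnRNPC-targeted cells (difference 0.76, adjusted p = 0.336). Another 116 genes called higher moved by 0.5 or more with IFN-α without being called there.

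Beyond the lists, and among genes with an average log2 CPM of at least 2, the largest increases were those of BATF2 (log2 fold change 4.32), NEXN (4.09), IFI16 (3.84), HELZ2 (3.67), LY6E (3.66), SHFL (3.63), LGALS3BP (3.59), PLEKHA4 (3.52), DDX60 (3.49), and CSF1 (3.47). IFI16 binds DNA in the nucleus and cytosol, SHFL restricts viral translation, and CSF1 is the growth factor of macrophages. NEXN, an actin-binding protein, was at 6.61, 7.284, and 9.143 CPM on day 4 and 90.62, 114.2, and 187.7 CPM on day 5. All 10 differed in their time change from hnRNPC-targeted cells. GBP1, an IFN-induced GTPase below that level that was named after its values were seen, rose by 5.87 on the log2 scale.

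The integrated stress response, in which phosphorylated eIF2α favors translation of ATF4, was called higher in 5 of 24 genes (3.4% over all genes), and by adjusted p alone 16 were higher and 2 lower (24.3% and 27.5% over all genes). ATF3, a transcription factor of this response, was at 9.289, 8.624, and 12.82 CPM on day 4 and 80.28, 78.26, and 137.2 CPM on day 5 (3.27 ± 0.248, adjusted p = 8.32e-14). PPP1R15A, which directs the eIF2α phosphatase, and TRIB3 rose by 1.52 and 1.51. INHBE rose by 1.53 and was not distinguishable from hnRNPC-targeted cells (difference 0.82, adjusted p = 0.282), and it was also called higher in CTRL cells (1.71, adjusted p = 0.0169). The chaperone gene HSPA5 was lower by adjusted p alone (-0.52, adjusted p = 0.0192).

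Cell death genes were called higher in 6 of 24 (3.4% over all genes). By adjusted p alone 18 were higher and 3 lower, against 24.3% and 27.5% of all genes. MLKL, the pore-forming protein of necroptosis, was at 33.19, 32.34, and 37.81 CPM on day 4 and 122.8, 133.7, and 185.9 CPM on day 5 (2.10 ± 0.0917, adjusted p = 4.98e-21). PMAIP1, or NOXA, rose by 1.28, the death receptor gene TNFRSF10B by 1.26, and CASP10 by 1.22. BCL2, which blocks apoptosis, was lower by adjusted p alone (-0.72, adjusted p = 2.83e-10). AIM2, an inflammasome sensor of DNA that was below the limit for testing, had 35, 20, and 79 counts on day 4 and 931, 1513, and 2788 on day 5. Of 17 genes of growth arrest and p53, 1 was called higher (3.4% over all genes), GADD45B (1.17 ± 0.0985, adjusted p = 1.21e-12), and none lower.

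No gene of DNA replication and mitosis was called, but 38 of 39 were lower and 1 higher by adjusted p alone, against 27.5% lower over all genes, and their median log2 fold change was -0.434. RRM2, a subunit of ribonucleotide reductase, had the largest decrease (-0.95, adjusted p = 4.18e-16), followed by TYMS, which makes thymidylate (-0.78, adjusted p = 6.15e-09). CCND3, which encodes cyclin D3, was the member that was higher (0.23, adjusted p = 0.0239). Cytosolic ribosomal protein genes behaved alike, with 74 of 79 lower by adjusted p alone, none called, and a median of -0.447. RPL7A had the largest decrease (-0.80, adjusted p = 1.28e-10). Among 28 hnRNP and splicing factor genes, 13 were lower and 2 higher by adjusted p alone, against 27.5% and 24.3% over all genes, and HNRNPA1 had the largest decrease (-0.83, adjusted p = 3.74e-05).

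Myeloid genes moved in both directions. Of 16 monocyte and macrophage genes, 5 were called higher (3.4% over all genes) and 1 lower (0.273%). By adjusted p alone 11 were higher and 1 lower, against 24.3% and 27.5% of all genes. SIGLEC1, a sialic acid receptor of macrophages, was at 13.32, 12.47, and 20.26 CPM on day 4 and 155.0, 191.4, and 230.1 CPM on day 5 (3.65 ± 0.218, adjusted p = 6.87e-17). CD83 rose by 1.5, and its time change was not distinguishable from that in hnRNPC-targeted cells (difference 0.55, adjusted p = 0.332). LYZ, which encodes lysozyme, was at 193.7, 222.1, and 159.7 CPM on day 4 and fell to 94.25, 93.51, and 69.57 CPM (-1.16 ± 0.178, adjusted p = 1.02e-06). MS4A3, a gene of granulocyte and monocyte progenitors, fell from 136.0, 160.5, and 142.2 CPM to 77.89, 78.51, and 62.09 CPM (-1.01 ± 0.0917, adjusted p = 1.12e-11). Neither LYZ (difference -0.31, adjusted p = 0.339) nor MS4A3 (difference -0.15, adjusted p = 0.384) differed in its time change from hnRNPC-targeted cells beyond the test's threshold. LYZ was also lower by adjusted p in CTRL cells (-0.73, adjusted p = 0.0101) and with the ADAR gRNA alone (-0.85, adjusted p = 0.0127), and its difference from CTRL cells did not pass (-0.43, adjusted p = 0.187), whereas that of MS4A3 did (-1.03, adjusted p = 5.35e-08).

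Among genes with an average log2 CPM of at least 2, the other largest decreases were those of F2R (log2 fold change -1.43), S100A8 (-1.41), SERPINB2 (-1.27), SDC1 (-1.24), CEACAM6 (-1.24), NEURL1B (-1.23), NT5DC2 (-1.21), GRIN1 (-1.20), and HMGB1P5 (-1.19), besides a gene with no matched symbol, ENSG00000269243 (-1.23). S100A8, a subunit of calprotectin, went from 23.65, 28.11, and 39.06 CPM to 11.02, 11.33, and 11.89 CPM. SERPINB2, CEACAM6, and HMGB1P5 were not distinguishable from hnRNPC-targeted cells in their time change. HMGB1P5 is a pseudogene, which can share reads with near-identical copies.

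Shorter lists showed few called genes. In HLA class I presentation, TAP1, the peptide transporter, rose by 2.37, ERAP2 by 1.42, and NLRC5 by 1.24. These were 3 of 13 tested, against 3.4% of all genes called higher. By adjusted p alone 8 of the 13 were higher and 1 lower (24.3% and 27.5% over all genes). Of 21 aminoacyl-tRNA synthetase genes, 1 was called (3.4% called higher over all genes), WARS1 (1.26 ± 0.127, adjusted p = 1.6e-10). No gene was called among 19 of nonsense-mediated decay, 22 of cholesterol synthesis, 18 histones, 13 mitochondrially encoded mRNAs, or 4 of HLA class II, and by edgeR's adjusted p alone 10, 5, 5, 0, and 2 of them passed, against 51.8% of all genes.

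Markers of the monocytic line summed to 362 to 421 CPM on day 4 and 306 to 342 CPM on day 5. This fall was that of LYZ, without which the sums were 193 to 202 CPM on day 4 and 236 to 248 CPM on day 5. ITGAM, an integrin chain of myeloid cells, was at 40.79, 35.92, and 38.64 CPM on day 4 and 76.02, 73.38, and 73.11 CPM on day 5. Markers of T cells reached at most 0.303 CPM in sum, of erythroid cells and megakaryocytes 0.227, and of epithelial cells and fibroblasts 0.379, with PF4, HBB, and KRT14 at 0. These sums leave out CD4, which monocytes also carry (22.7 to 38.44 CPM in the 6 libraries), and the integrin gene ITGA2B (1.591 to 2.829 CPM). The B cell markers summed to 11.3 to 12.5 CPM on day 4 and 41.3 to 68.1 on day 5. Of 3 tested members 1 was called higher (3.4% over all genes). This was PAX5, a transcription factor, at 5.302, 5.174, and 6.333 CPM on day 4 and 33.48, 43.37, and 62.31 CPM on day 5 (3.05 ± 0.180, adjusted p = 4.19e-17), which IFN-α also induced (2.83). CD79A and MS4A1, which define B cells, had at most 29 counts in the 6 libraries.

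A-to-I editing, read as the share of edited reads over sites that passed the authors' filter, was at 7.924, 7.897, and 7.979% in the day 4 libraries and at 10.2, 10.72, and 11.18% on day 5. The 3 day 5 libraries were all above the day 4 libraries, with a difference of 2.768 percentage points (exact permutation test, two-sided, p = 0.1, the smallest p that 3 against 3 libraries allow). For library 1 of day 4 the 95% Wilson interval was 7.876 to 7.972%, over 1216985 reads. Such intervals cover counting error only. Editing stayed under that of CTRL cells on day 5 (15.61 ± 0.219%, SD, n = 3), whereas ADAR-targeted cells had 6.74 ± 0.107% on day 4 and 6.778 ± 0.107% on day 5. IFN-α–treated CTRL cells had 27.98 ± 2.72%.

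**Figure D3:**
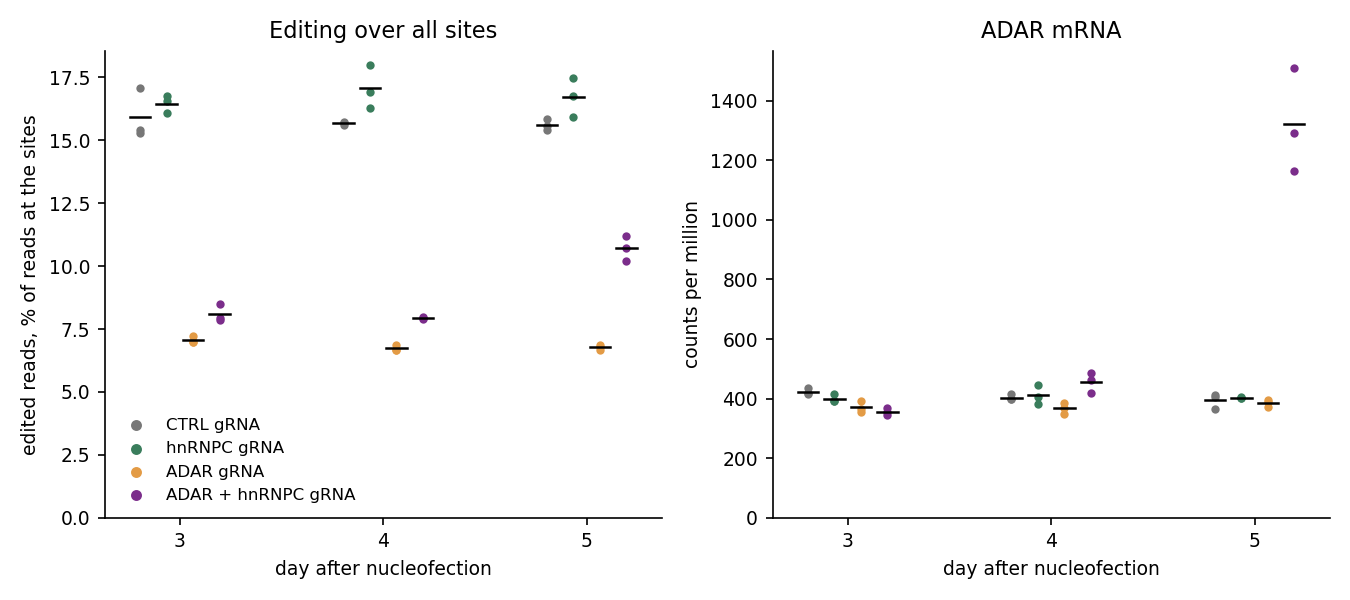
Percentage of edited reads over all sites (left) and ADAR mRNA in CPM (right) in each gRNA group by day, with 1 point per library and a line at the mean of 3. The doubly targeted libraries are edited at 7.897 to 7.979% on day 4 and at 10.2 to 11.18% on day 5, between those of ADAR-targeted and CTRL cells, and their ADAR mRNA is the highest of the day 5 groups.

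Editing cluster regions (ECRs), stretches around groups of neighboring editing sites, were tested for the edited share where every library had at least 50 reads. Of 1220 ECRs, 241 (19.8%) were edited more on day 5. These rose by at least 2 percentage points at an adjusted p of at most 0.05 (edgeR). In the other direction 0 were edited less, and 0 also by adjusted p alone. An unadjusted p under 0.05 was found for 437 in either direction. The median difference was 2.64 percentage points, and 220 of the 241 were still below CTRL cells of day 5. Both ECRs described next, in PEDS1 and SIN3A, are among the exceptions. With the hnRNPC gRNA alone, their shares over the pooled reads of day 5 were 26.6% (PEDS1) and 27.09% (SIN3A). An ECR in PEDS1 was edited at 9.524, 7.907, and 6.952% on day 4 and at 19.73, 17.43, and 25.44% on day 5 (adjusted p = 0.00293), against 13.09% over the pooled reads of CTRL cells of day 5. An ECR in SIN3A, a corepressor gene, was at 14.5, 7.692, and 18.37% on day 4 and 27.89, 34.34, and 23.62% on day 5 (adjusted p = 0.0175), against 10.43% in CTRL cells of day 5, and its mean of day 4 (13.52%) was above that value too.

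Of 16287 single sites, 176 (1.08%) were edited at least 5 percentage points more on day 5 and 1 (0.00614%) less. By annotation, 120 of the 176 lay in UTRs, 36 in introns, 14 between genes, 5 in other exons, and 1 in coding sequence. Of the 16287 tested sites, 7484 lay in UTRs, 4983 in introns, 2802 between genes, 961 in other exons, and 57 in coding sequence. Many of the 176 were neighbors, in UTR sequence annotated to SPN and QPRT or in introns of ENSG00000259316. The count of called sites depended on the libraries, and was 60 sites without replicate 1 of day 4, 88 without replicate 2, and 103 without replicate 3 of that day, and 77 and 87 without replicates 2 and 3 of day 5. The bases around the site edited less, in an intron of RPAP3-DT at chr12:48100526-48100554, are shown on the strand of the site (GRCh37), with the edited A in capitals.
RPAP3-DT: aacacaaacaaatgAaactttccatttaa

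Among the sites edited more, one at position 64652154 of chromosome 15 in an intron of a gene with no matched symbol went from a mean of 13.43% to 45.74%. The RPAP3-DT site was at 14.29, 7.143, and 17.86% on day 4, and on day 5 no edited read was seen among 31, 31, and 23 reads. All 173 called sites on chromosomes lay at an A of the reference on their strand.

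The abundance of RNA over ECRs was a separate measurement. Of 2528 ECRs tested, 35 (1.38%) rose at least 2-fold and 25 (0.989%) fell. Genes called higher held 30 of the 35, against 8 of the 2468 ECRs that were not called. With the hnRNPC gRNA alone 1 ECR rose (0.0396%) and 2 fell (0.0791%), and in CTRL cells 0 rose and 1 fell (0.0396%). The time change of 52 ECRs was higher (2.06%) and of 7 lower (0.277%) than with the hnRNPC gRNA alone. An ECR of MX1 at chr21:42818756-42821653 was at 8.563, 9.025, and 16.52 CPM on day 4 and 265.8, 315.3, and 437.9 CPM on day 5 (log2 fold change 4.90, adjusted p = 8.87e-21). An ECR of RIGI at chr9:32455302-32457488 rose by 4.35 and an ECR of DHX58 at chr17:40253939-40256072 by 3.44. An ECR in RAB8A at chr19:16233161-16235370 fell from 33.94, 35.42, and 30.67 CPM to 14.77, 15.66, and 10.77 CPM (-1.28, adjusted p = 3.06e-09). It also overlaps the gene ENSG00000269243, which was itself called lower (-1.23), so reads of the ECR and of that gene are in part the same. With library sizes taken from ECR totals, 52 ECRs were higher and 6 lower. Without replicate 1 of day 4, 13 ECRs were called lower, without replicate 2, 38, and without replicate 3, 46.

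Of 21798 introns tested, 342 (1.57%) rose at least 2-fold and 91 (0.417%) fell. With the hnRNPC gRNA alone 15 rose (0.0688%) and 8 fell (0.0367%), and in CTRL cells 0 rose, by adjusted p alone too, and 3 fell (0.0138%). The time change of 303 introns was higher (1.39%) and of 195 lower (0.895%) than with the hnRNPC gRNA alone. Of the 342, 237 lay in a gene called higher, 85 in a gene not called, and 20 in no single tested gene. Among introns that were not called, 94 lay in a gene called higher and 19819 in a gene not called. An intron of MX1 at chr21:42818069-42821063 was at 1.558, 1.34, and 3.245 CPM on day 4 and 38.12, 46.27, and 71.39 CPM on day 5 (4.66 ± 0.358, adjusted p = 8.51e-13). Introns of HELZ2 rose by 3.79 and 3.58, of OAS1 by 3.70, and of NCOA7 by 3.48. Introns of SERPINB2, LYZ, and MS4A3 were those that fell most among the better covered ones, by 1.54, 1.27, and 1.49 on the log2 scale. None of these 3 introns differed in its time change from hnRNPC-targeted cells beyond the threshold (adjusted p = 0.926, 0.455, and 0.718).

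Intron reads per 100 gene counts were 27, 21.59, and 21.2 in the day 4 libraries and 21.3, 22.9, and 24.08 on day 5, so that replicate 1 of day 4 stood apart. Without it, 428 introns were called higher and 31 lower, whereas 186 and 193 were lower without replicates 2 and 3 of day 4. With library sizes taken from intron totals, 422 were higher and 33 lower. Of the 85 higher introns in genes that were not called, 15 (17.6%) lay within 50 kb of another gene called higher, against 3.3% of introns that were not called.

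**Figure D4:**
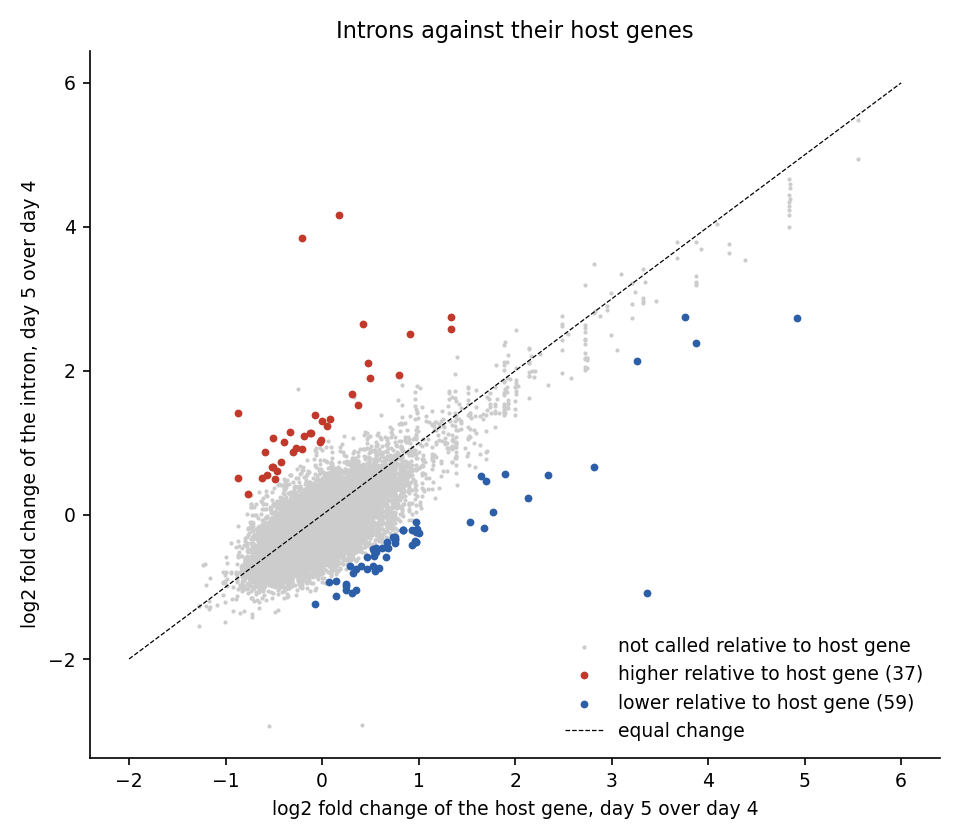
Log2 fold change of introns from day 4 to day 5 against that of their host gene in doubly targeted cells, with the 37 called higher relative to the gene in red, the 59 called lower in blue, and a dashed line at equal change. The intron of MVB12A is at 2.65 with its gene at 0.43, and the intron of HSH2D at -1.08 with its gene at 3.37.

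Relative to the host gene, 37 of 20330 introns (0.182%) were higher on day 5 and 59 (0.29%) lower. With the hnRNPC gRNA alone these were 3 (0.0148%) and 1 (0.00492%), and by the test of the difference 12 introns were higher (0.059%) and 37 lower (0.182%) in the doubly targeted cells. An intron of MVB12A at chr19:17516531-17529889, which lies 91 bases from BST2, was at 15.42, 13.4, and 17.36 CPM on day 4 and 81.58, 88.89, and 118.5 CPM on day 5, and rose by 2.21 relative to its gene (adjusted p = 5.06e-14). An intron of GCA at chr2:163175350-163200597, 155 bases from IFIH1, rose by 1.6 relative to its gene (adjusted p = 7.78e-07). For both introns the neighboring gene was called higher. Of the 37 introns, 11 lay within 50 kb of a gene called higher while their own gene was not. An intron of KLHL23 lay 0 bases from PTCHD3P2, which was called higher. Introns of BAIAP2 and MAP3K5, also higher relative to their genes, lay 636514 and 1197930 bases from the nearest gene called higher. In the other direction, an intron of HSH2D at chr19:16245046-16252750 went from 9.919, 7.209, and 6.024 CPM to 3.431, 3.868, and 3.654 CPM while its gene rose by 3.37, which gave -4.39 relative to the gene (adjusted p = 6.04e-14). An intron of RSAD2 rose by 2.73, less than its gene, and was at -2.21 relative to it (adjusted p = 1.26e-09). Without replicate 1 of day 4, 54 introns were higher and 36 lower relative to the host gene.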

How the data were processed

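Total RNA depleted of ribosomal RNA had been sequenced as paired ends. The authors aligned the reads with STAR 2.5.4a to GRCh37 and counted uniquely mapped reads (mapping quality 255) with featureCounts. The deposited values are counts per gene, intron, and ECR, without normalization, and counts of edited and of all reads per editing site. Replicates were 3 per group, which the study describes as independent experiments.

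All 48 study 1 libraries were fitted together with 1 coefficient per group, in R 4.3.3 with edgeR 4.0.16 (glmQLFit and glmQLFTest). Library sizes were gene totals multiplied by TMM factors, and p-values were adjusted by Benjamini-Hochberg over all features tested. Average log2 CPM minimums were 0.5 for genes, 1 for introns, and 4.5 for ECRs, the last read on ECR totals. Editing shares were tested in the 6 libraries with edgeR quasi-likelihood on edited and unedited counts. Introns relative to the host gene were tested with limma 3.58.1. Site filters followed the study (within at least 1 group, a level of at least 0.05 in 3 libraries, at least 0.1 in 2, and 10 reads). Tests were tried on simulated data first. Alternatives were limma-voom, DESeq2 1.42.0, other library sizes and filters, the 6 libraries alone, leaving out each library, and a replicate block. 0 per-sample columns had no sample. Libraries of a group differed by at least 20.1 in chi-square per gene, so none was a copy.

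Same-numbered libraries of the 2 days deviated together (correlations 0.105, 0.157, and 0.239 across genes). The study describes replicates as separate experiments, so equal numbers were read as pairs. The reported tests had no term for these pairs, which entered only as the replicate block among the alternatives. The members and lists were chosen with earlier results of these data known. Named genes were the targets and STING1, up to 4 called genes per list, the 10 largest changes in each direction beyond the lists, and 8 outside the IFN-α response, with a minimum of 2 for the average log2 CPM outside the lists. Named introns, ECRs, and sites followed the same rule with 5, 5, and 3 per direction. Other members of a list were named after their values were seen. Some items that the rule named are not reported here.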

Additional observations from a re-analysis of the deposited data

Results flagged for a closer look

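The change from day 4 to day 5 differed between gRNA groups by a test of the difference itself. This held for 500 genes against hnRNPC-targeted cells, 389 against ADAR-targeted cells, and 501 against CTRL cells, each at 2-fold and an adjusted p of at most 0.05 (edgeR). Against hnRNPC-targeted cells it also held for 498 introns and 59 ECRs. Of the 68 named genes, 58 differed from hnRNPC-targeted cells by adjusted p, and the other 10 were CXCL11, ICAM1, INHBE, MS4A3, CD83, LYZ, SERPINB2, CEACAM6, HMGB1P5, and NUPR1.

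Genes outside the tested set also carried signal. The lowest day 5 library had 1478 counts of IFNB1, 186 of IFNL1, and 4 of IFNL2, where the highest CTRL library of day 5 had 8, 0, and 0. For IFNL2 the counts were few, at 5, 4, and 19 on day 5.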

How the results depend on the processing

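Of 101 alternative values of the comparisons, 91 stayed within 1.5 times the reported count or kept direction and side of the threshold, and 10 moved. Of 816 alternative values of named genes 811 did so, 0 reversed, and 5 lost the call, all of HMGB1P5. Without a filter on low counts, 1285 genes were called (1133 higher and 152 lower), and with the intron minimum lowered to -1, 2148 introns were (1433 and 715). Reading the ECR filter on gene totals, a choice made after seeing the data, left 586 ECRs tested and 9 called. Sites with at least 50 reads gave 272 calls, with fewer sites tested (3095). The replicate block gave 110 called sites in place of 177 and changed no other count by over 1.5 times, with 486 genes in place of 485, of which 480 were shared. Leaving out 1 library gave 407 to 560 genes, 410 to 565, 333 to 446, and 411 to 559 for the differences from hnRNPC-targeted, ADAR-targeted, and CTRL cells, 383 to 508 introns, 90 to 130 introns relative to the gene, 51 to 82 ECRs, 162 to 251 edited ECRs, 60 to 194 sites, and 2.527 to 3.019 percentage points of editing. Without replicate 3 of day 5, 400 of the 485 gene calls remained. DESeq2 called the same 485 genes, which is no independent check: it was run with the same library sizes, its log2 fold changes were within 0.0068 of edgeR's, and 488 genes passed the fold alone in both fits, while 6894 passed its adjusted p against 6830. With the size factors of DESeq2, 507 genes were called and the median log2 fold change moved by 0.0258. Depth limits genes such as IFNL2 and single sites with few reads.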
